A study of Mus musculus with 20 samples.

Results

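The acetylated histone mark H3K14ac and the corepressor Kap1 were compared in the livers of old mice as 2 lists of peaks on chromosomes 1 to 19, the H3K14ac list with 20120 peaks and the Kap1 list with 21390. Together these are 41510 of the 175329 peaks in the 6 lists of the series, which hold H3K14ac, Setdb1 and Kap1 in young and old liver. A further 343 H3K14ac and 751 Kap1 peaks lay outside chromosomes 1 to 19. Membership was set by mark, age and chromosome, with no measured value used. The peaks come from 5 of the 20 samples, namely the livers of 3 old mice for H3K14ac and of 2 old mice for Kap1 by the labels and the methods. Figure legends of the study state fewer merged livers for H3K14ac. All were wild-type male C57BL/6 mice aged 21 months, with no genetic change or treatment, and the young livers set beside them came from mice of the same strain aged 3 months. Chromatin from snap-frozen whole liver was immunoprecipitated with a rabbit antibody to the mark or the factor, so cells of every type in the liver contribute. The livers of a group were merged before peak calling. No spread between mice can therefore be given, the depth behind a peak is unknown, and no difference between lists below has a test over mice. The libraries also differed in sonication and in sequencer, and Kap1 peaks were called at a looser q-value, so a difference between the marks cannot be told apart from a difference between the assays.

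Acetylation of lysine 14 of histone H3 is found at the start sites of active genes and at enhancers. Kap1 is coded by the gene Trim28. It is brought to DNA by zinc finger proteins of the KRAB class and in turn brings deacetylases and Setdb1, a methyltransferase of lysine 9 of the same histone. It is known for the silencing of transposable elements, for imprinted loci and for binding within the genes of KRAB zinc finger proteins themselves. A region with peaks in both lists thus has signal of an acetyl mark of open chromatin and of a factor of silencing. The lists come from merged whole livers, so overlapping peaks may stem from different cells or different mice. Whether the mark and the factor lie on the same chromatin was not tested.

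The sequences below are examples of shared sites and of sites with 1 mark. Each is the central 150 bp of a peak outside exons, read 5′ to 3′ on the plus strand of GRCm38 (RefSeq), and the capitals mark CpG, the dinucleotide that is dense at many promoters. The first 3 are Kap1 peaks of 150 bp that share bases with an H3K14ac peak, in introns of a zinc finger gene, a vomeronasal receptor gene and a cytochrome P450 gene.
Zfp985, shared, chr4:147579174-147579323: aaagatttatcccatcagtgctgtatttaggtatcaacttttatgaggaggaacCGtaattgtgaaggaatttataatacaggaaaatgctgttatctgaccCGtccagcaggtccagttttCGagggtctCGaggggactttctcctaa
Vmn2r7, shared, chr3:64756296-64756445: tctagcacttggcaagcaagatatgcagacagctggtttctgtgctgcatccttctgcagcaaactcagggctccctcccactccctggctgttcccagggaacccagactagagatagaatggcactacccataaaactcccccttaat
Cyp2c29, shared, chr19:39294684-39294833: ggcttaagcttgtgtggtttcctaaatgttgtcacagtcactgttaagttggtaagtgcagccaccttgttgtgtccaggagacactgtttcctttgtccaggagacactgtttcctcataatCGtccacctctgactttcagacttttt
The next 2 are Kap1 peaks of 150 bp without H3K14ac, in introns of a zinc finger gene and a vomeronasal receptor gene.
Zfp985, Kap1 only, chr4:147563037-147563186: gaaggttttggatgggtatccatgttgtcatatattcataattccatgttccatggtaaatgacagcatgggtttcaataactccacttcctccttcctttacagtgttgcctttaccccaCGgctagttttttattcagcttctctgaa
Vmn1r73, Kap1 only, chr7:11733406-11733555: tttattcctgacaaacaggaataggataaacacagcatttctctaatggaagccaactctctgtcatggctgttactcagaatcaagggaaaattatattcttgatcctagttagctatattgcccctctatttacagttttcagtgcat
The last 2 are centres of H3K14ac peaks without Kap1 just downstream of a start site, in a gene for a ribosomal protein and in the gene for antithrombin.
Rpl7, H3K14ac only, chr1:16104189-16104338: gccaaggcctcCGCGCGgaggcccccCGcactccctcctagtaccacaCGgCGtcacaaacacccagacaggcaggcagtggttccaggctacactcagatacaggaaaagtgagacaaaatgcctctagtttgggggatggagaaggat
Serpinc1, H3K14ac only, chr1:160978939-160979088: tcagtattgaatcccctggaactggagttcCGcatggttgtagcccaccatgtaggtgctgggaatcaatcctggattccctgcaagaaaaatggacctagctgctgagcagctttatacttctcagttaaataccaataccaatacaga
The shared site of Zfp985 held 4 CpG, those of Vmn2r7 and Cyp2c29 held 0 and 1, and the H3K14ac centres at Rpl7 and Serpinc1 held 6 and 1. The Serpinc1 centre thus had fewer CpG than the shared site of Zfp985. Across the lists, 5 or more CpG were present in 34.0% of H3K14ac centres, in 6.08% of Kap1 centres and in 3.93% of all 150 bp tiles of the chromosomes.

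The H3K14ac list was checked against marker genes of the cells of the liver. Of 12 hepatocyte markers, 7 had an H3K14ac peak in the gene or within 1 kb, among them Apob, Hnf4a with 3 and Ttr, against a background of 37.7% of 20807 protein-coding genes. Alb, Fgb, Serpina1a, Tat and Trf had 0. Markers of other liver cells were reached in 0 of 5 genes for Kupffer cells, 2 of 4 for endothelium (Pecam1 and Stab2), 1 of 5 for stellate cells (Reln), 1 of 4 for bile duct (Sox9) and 1 of 4 for lymphocytes (Ptprc). Kap1 had 0 peaks at the hepatocyte markers, which in their span allows up to 12.9 peaks per Mb and so does not set them below the 7.08 per Mb of all protein-coding genes. Among the genes of the factors, Trim28 had 4 H3K14ac peaks, Onecut1, which codes for a hepatocyte transcription factor, had 7, Hdac3 had 1 and Setdb1 had 0. Kap1 had 0 peaks at these 4 genes, too few to read against the 16.2% of protein-coding genes with one.

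Over the genome both lists were dense in the same few regions, and over all bins the ranks of their numbers were weakly related. In 2403 bins of 1 Mb, Pearson's r between the numbers of peaks was 0.60 and Spearman's rho was 0.14, and rho was 0.083 in bins of 100 kb and 0.25 in bins of 5 Mb. The bins are described here, not tested, since neighbouring bins share genes, GC content and repeats. The densest bin of both lists lay on chromosome 4, from 147000001 to 148000000, with 137 H3K14ac and 220 Kap1 peaks against medians of 5 and 4 per bin. It holds 9 genes of the Zfp series, and Zfp985, Zfp984 and Zfp982 had 23, 19 and 10 Kap1 peaks. The same genes had 7, 5 and 6 H3K14ac peaks. Without the bins that hold the 1% highest counts of either list r was 0.39, with rho at 0.09. Of the 120 bins with the most H3K14ac peaks, 64 were also among the 120 with the most Kap1 peaks (53.3%, where 5% of all bins are in each set). These sets held 25.7% of the H3K14ac and 40.1% of the Kap1 peaks.

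**Figure D1:**
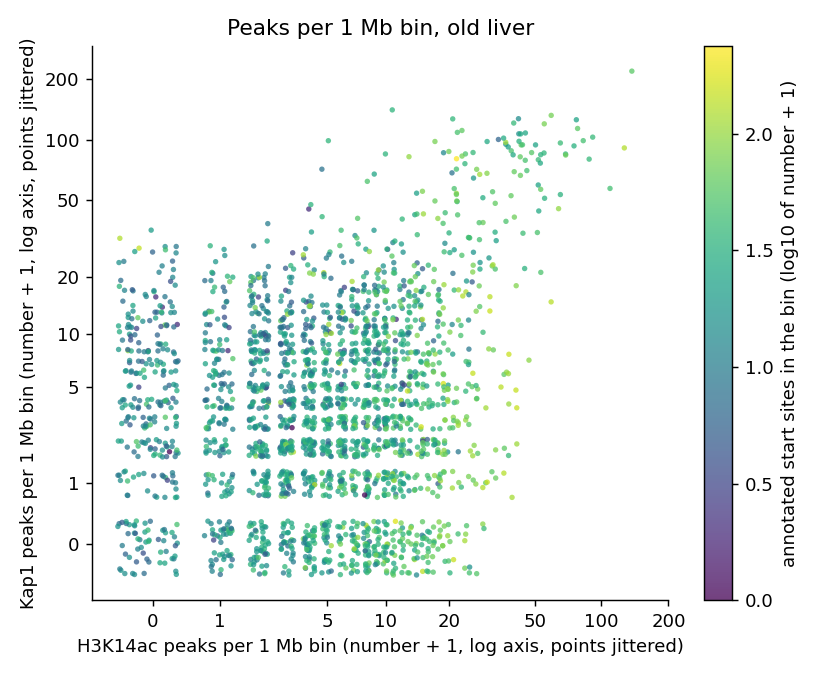
Each point is a 1 Mb bin of chromosomes 1 to 19 in old liver, with the number of H3K14ac peaks on the x axis and of Kap1 peaks on the y axis, both as number + 1 on log axes with a small jitter, coloured by the number of annotated start sites. Over all 2403 bins the ranks are weakly related (rho = 0.14), and a group at the upper right, up to 137 H3K14ac and 220 Kap1 peaks, is high in both.

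The bins that led 1 list named different genes. For H3K14ac, chromosome 10 from 81000001 to 82000000 had 127 peaks and 91 of Kap1, and there Nfic, the gene of a CCAAT-binding transcription factor, had 33 H3K14ac and 4 Kap1 peaks. Chromosome 4 from 145000001 to 146000000 had 88 and 80, with 30 H3K14ac and 13 Kap1 peaks at Vps13d. Chromosome 3 from 106000001 to 107000000 was high in both, with 91 and 103, and holds the chitinase-like genes Chil3 and Chil4 and the chitinase gene Chia1. The leading Kap1 bins varied in H3K14ac, and the 120 bins with the most Kap1 peaks had a median of 28 H3K14ac peaks against 5 over all bins. Chromosome 12 from 18000001 to 19000000 had 141 Kap1 and 11 H3K14ac peaks, and chromosome 6 from 123000001 to 124000000 had 127 and 21. The latter holds the pheromone receptor genes Vmn2r23 and Vmn2r24, with 9 and 8 Kap1 peaks and 1 and 4 of H3K14ac. On chromosome 7 from 15000001 to 16000000, where 132 Kap1 and 59 H3K14ac peaks were counted, the oocyte homeobox gene Obox1 had 15 Kap1 and 2 H3K14ac peaks. Chromosome 1 from 85000001 to 86000000, with 114 Kap1 and 78 H3K14ac peaks, holds Sp100, a nuclear body gene, with 16 and 7.

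The surroundings of the 2 lists differed. H3K14ac counts went with the number of annotated start sites in a bin (rho = 0.48) and with GC content (rho = 0.30). Kap1 counts had no single direction with start sites (rho = -0.08, r = 0.11), with means of 7.66, 6.63, 8.65 and 11.8 peaks per bin in 4 classes from the fewest start sites to the most. They were lower in bins of high GC content (rho = -0.32) and went with the share of soft-masked repeat sequence (rho = 0.50, against 0.09 for H3K14ac). Within the same 4 classes rho between the marks ran from 0.14 in the bins with the fewest to 0.24 in those with the most. By chromosome it ran from -0.07 to 0.33 and was above 0 on 18 of 19. Chromosome 11 stood apart, with 8.55 H3K14ac but only 3.44 Kap1 peaks per Mb, whereas chromosome 7 had 11.1 and 15.0 and chromosome 4 had 12.1 and 12.6. In young liver the same bins gave r = 0.70 and rho = 0.32, and the difference between the ages was not tested.

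H3K14ac was far above the share of bases at start sites, and Kap1 was nearer to that share in every class. Within 1 kb of an annotated start site were 36.5% of H3K14ac peaks (95% Wilson interval 35.9% to 37.2%) and 6.45% of Kap1 peaks (6.13% to 6.78%), where such windows hold 4.47% of the bases. Between genes were 31.3% of H3K14ac peaks, 0.63 times the share of bases there, and 56.6% of Kap1 peaks, against 50.03% of the bases. Introns held 25.9% and 31.0% against 42.4%, and exons 6.22% and 5.90% against 3.07%. By any overlap and relative to the bases, Kap1 was thus higher in exons (1.92 times) and at start sites (1.44 times) than between genes. These ratios set whole peaks against single bases. A peak touches an exon or a start site window more easily than a base does, which raises both. All intervals here cover counting error only. By the midpoint, which does not depend on the width of a peak, the shares at start sites were 34.7% and 5.95%. By any overlap, the shares within 5 kb of a start site were 50.9% and 23.5%, against 18.8% of the bases. With the start sites of protein-coding genes alone the Kap1 share fell to 2.63%, against 2.13% of the bases in those windows, while that of H3K14ac was 33.0%. Genes with a peak within 1 kb of a start site made up 27.6% of protein-coding genes for H3K14ac and 2.36% for Kap1.

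Near start sites both marks lay more often downstream, H3K14ac the more so. Of 6990 H3K14ac midpoints within 1 kb of a start, 76.7% lay downstream, compared with 56.4% of 1273 Kap1 midpoints. Along the bodies of protein-coding genes, 45.7% of H3K14ac peaks fell in the first 10% of the length. Kap1 peaks were spread along the gene, with 9.43% in the first 10% and 11.6% in the last. The 5′ UTR, at 0.287% of the bases, held 7.07% of H3K14ac and 0.43% of Kap1 midpoints. Coding exons held 8.71% and 2.73% against 1.43% of the bases, so that Kap1 was above the share of bases there too, and the 3′ UTR held 1.28% and 1.5% against 1.29%.

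**Figure D2:**
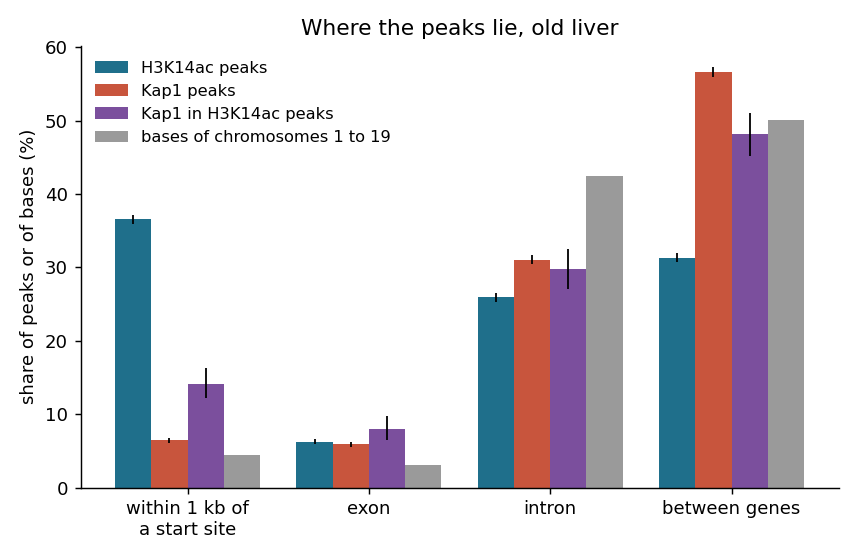
Bars give the share of peaks (%) within 1 kb of a start site, else in an exon, else in an intron, else between genes, for H3K14ac, Kap1 and those Kap1 peaks that lie in H3K14ac, with 95% Wilson intervals, and the share of bases in grey. H3K14ac reaches 36.5% at start sites and Kap1 6.45%, with the Kap1 peaks in H3K14ac between them at 14.1%.

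The base composition followed this split. GC content of the central 150 bp averaged 54.3% ± 12.5 (SD over peaks) for H3K14ac and 46.6% ± 7.67 for Kap1, with 41.9% in the tiles. Soft-masked sequence made up 15.4% of H3K14ac centres, 31.8% of Kap1 centres and 33.5% of tiles. On either strand, TGCCGC, the core bound by the KRAB protein Zfp57, was found in 6.46% of H3K14ac centres, in 1.57% of Kap1 centres and in 0.929% of tiles. At start sites, where GC content was 65.4%, the share for H3K14ac was 14.3%. ATCAAT, letters of the Onecut motif, was in 3.97% of H3K14ac centres and 6.73% of Kap1 centres, both below the 7.85% of tiles. CCGGAAG, letters of ETS motifs, was in 1.63% and 0.547%, against 0.431%, and AAGATGG, letters of the YY1 motif, was in 2.97% and 4.17%, against 3.77%. GGTTCGA, from the internal promoter of tRNA genes, was in 0.323% and 0.224%, against 0.197%. These matches describe the letters of the sequence and are not binding sites.

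Gene families divided into those with Kap1, those with H3K14ac and those with both. Densities were counted by peak midpoints in the gene and 1 kb either side, overlapping genes joined, and are given relative to all protein-coding genes, which had 12.1 H3K14ac and 7.08 Kap1 peaks per Mb. Zinc finger genes were above it for both marks, at 2.05 times for H3K14ac (342 peaks, 24.9 per Mb with an exact Poisson interval of 22.4 to 27.7) and 2.86 times for Kap1 (278 peaks, 20.3 per Mb, 18.0 to 22.8). Among 414 of them, 180 had an H3K14ac peak (43.5%, against 37.7% of protein-coding genes), 90 had a Kap1 peak (21.7%, against 16.2%) and 54 had both (13.04%, against 8.31%). A Kap1 peak in H3K14ac was present at 16, or 3.86%, against 1.16% of protein-coding genes. Within zinc finger genes 41 of the 278 Kap1 peaks were in H3K14ac (14.7%), compared with 5.38% in protein-coding genes as a whole. This rested on chromosome 4, where 33 of 97 were (34.0%, 25.4% to 43.9%). Without chromosome 4, an omission chosen after the data were seen, it was 8 of 181, or 4.42% (2.26% to 8.48%), against 4.93% in protein-coding genes, while the densities were still 1.88 times for H3K14ac and 2.10 times for Kap1. Genes with a Kap1 peak were then 18.9% of 381, against 16.0% of protein-coding genes, and those with a Kap1 peak in H3K14ac were 7, or 1.84%, against 1.11%. Zfp981 had 22 H3K14ac and 11 Kap1 peaks, and all 11 of the latter lay in H3K14ac. In Zfp985 the numbers were 7 and 23 with 5 in H3K14ac, and in Zfp984 they were 5 and 19 with 3. Zfp936, with 21 Kap1 and 2 H3K14ac peaks, and Zfp950, with 24 and 9, had among the most Kap1 peaks of the list. H3K14ac alone was present at 126 members (30.4%) and Kap1 alone at 36 (8.70%), near the 29.4% and 7.93% of protein-coding genes.

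Within zinc finger genes the marks took different places. Counted in the genes without the 1 kb either side, there were 294 H3K14ac and 265 Kap1 midpoints. Of the 294 H3K14ac midpoints, 50.3% were within 1 kb of a start site, where 5.94% of the span lies, and 47.2% of those in gene bodies fell in the first 10% of the length. Of the 265 Kap1 midpoints 4.53% were near a start site (2.61% to 7.75%), and those in gene bodies were spread along the length, with 7.22% to 13.3% in each stretch of 10%. The last exon, which in this family commonly codes for the zinc finger array, held 9.43% of Kap1 midpoints (6.47% to 13.6%) and 8.97% of the span.

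Receptor genes of smell and pheromone sensing, which are not known for expression in liver, carried Kap1 at a density above that of all protein-coding genes and H3K14ac at a density near or below it. Kap1 was at 5.47 times in 207 vomeronasal type 1 genes, at 4.54 times in 119 of type 2 and at 2.23 times in 1087 olfactory receptor genes, with H3K14ac at 0.93, 0.87 and 0.48 times. The 0.87 of type 2 (interval 0.62 to 1.18) was 1.03 with peaks merged within 1 kb and 1.14 without chromosome 7, so its side of 1 was not settled. By gene, a Kap1 peak was present at 23.2%, 42.9% and 12.4% of them, the last below the 16.2% of protein-coding genes. Vmn1r73 had 7 Kap1 peaks and Vmn1r179 had 5, both with 0 of H3K14ac. Vmn2r7 was mixed, with 9 Kap1 and 5 H3K14ac peaks, of which 2 Kap1 peaks lay in H3K14ac. Olfr827 had 4 and 2 with 1 in H3K14ac, while Olfr56 had 4 H3K14ac peaks and 0 of Kap1.

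Ribosomal protein, respiratory chain, and complement and coagulation genes were dense in H3K14ac and had 0 to 3 Kap1 peaks per family. Cytosolic ribosomal protein genes had 9.25 times the H3K14ac density (5.30 times with 5 kb either side in place of 1 kb). H3K14ac reached 50 of 79 genes (63.3%, against 37.7% of protein-coding genes). It was within 1 kb of a start site at 58.2% of them, against 27.6%. With 1 kb either side, the 79 span 0.516 Mb and the 20807 protein-coding genes 1025 Mb. Kap1 had 0 peaks, which allows up to 5.81 per Mb where a count of 0 allows 3. The exact Poisson interval runs up to 7.14 and takes in the 7.08 of all protein-coding genes. Rpl7 had 3 H3K14ac peaks, and Rpl13 and Rpl35 had 2 each. Respiratory chain genes had 4.02 times the H3K14ac density, with 42 of 73 genes reached (57.5%), and 2 Kap1 peaks, or 1.68 per Mb (0.204 to 6.08). Sdha, the flavoprotein of complex II, had 1 peak of each mark. Complement and coagulation genes, products of hepatocytes, stood at 2.07 times for H3K14ac, although by gene 20 of 46 were reached (43.5%, near the 37.7%). They had 3 Kap1 peaks, or 1.99 per Mb (0.41 to 5.81). C3 had 5 H3K14ac peaks and 1 of Kap1, Mbl1 had 5 and 0, and Serpinc1 had 4 and 0. Interferon response genes had 3.11 times the H3K14ac density, although by gene 16 of 38 were reached (42.1%, near the 37.7%), with 2 Kap1 peaks, an interval of 0.352 to 10.5 per Mb that takes in the level of all protein-coding genes. Tap1, the transporter of antigenic peptides, had 4 H3K14ac peaks, and Stat2 and Psmb8 had 3 each.

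Families of detoxification were above all protein-coding genes in the density of both marks. Cytochrome P450 genes were at 1.66 times for H3K14ac and 2.69 times for Kap1, with 3 of the 51 Kap1 peaks in H3K14ac (5.88%, near the 5.38% in protein-coding genes). By gene, 34 of 93 had H3K14ac (36.6%, against 37.7% of protein-coding genes) and 20 had Kap1 (21.5%, against 16.2%), 11 had both (11.8%, against 8.31%) and 3 had a Kap1 peak in H3K14ac (3.23%, against 1.16%). Cyp2c66 had 8 Kap1 and 2 H3K14ac peaks, Cyp2c55 had 5 and 1, and Cyp4f18 had 5 and 0. Cyp2c29 had 3 and 4, with 1 in H3K14ac. Phase II conjugation genes were at 1.65 and 2.64 times. By gene, 38.2% of 68 had H3K14ac, near the 37.7% of protein-coding genes, and 25.0% had Kap1, against 16.2%. Both shares count each of the overlapping Ugt1a genes, which share their peaks. The sulfotransferase gene Sult2a5 had 4 Kap1 and 0 H3K14ac peaks, and the glucuronosyltransferase gene Ugt3a1 had 6 and 2 with 1 shared. Genes of the Ugt1a series overlap and share their peaks, so that 10 conjugation genes are counted with a Kap1 peak in H3K14ac, where 2 such peaks are present by midpoint. Mup5, of the major urinary proteins, had 7 H3K14ac and 2 Kap1 peaks, both of the latter in H3K14ac.

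Imprinted genes, where Kap1 is known to act with Zfp57, were near the level of all protein-coding genes for both marks, at 0.91 times for H3K14ac (7.45 to 15.8 per Mb) and 1.09 times for Kap1 (4.79 to 11.8 per Mb). Snrpn had 8 Kap1 peaks and 0 of H3K14ac, and Rasgrf1 had 7 and 2. Ube3a, which codes for a ubiquitin ligase, had 1 and 5. A Kap1 peak in H3K14ac was found at 0 of the 47 imprinted genes, which allows up to 6.38% and so does not set them below the 1.16% of protein-coding genes. Serpin genes had 24 H3K14ac and 18 Kap1 peaks, or 1.47 and 1.89 times the density (11.4 to 26.6 and 7.94 to 21.2 per Mb), and the first interval takes in the 12.1 per Mb of all protein-coding genes. By gene, 23.3% of 60 had H3K14ac, below the 37.7%, and 21.7% had Kap1, with Serpinb6c at 5 H3K14ac and 3 Kap1 peaks. Apolipoprotein genes had 12 H3K14ac and 7 Kap1 peaks, a density of 2.73 times for each mark (17.1 to 57.9 and 7.77 to 39.8 per Mb), in different members. By gene they were not above the background, with H3K14ac at 8 of 27 (29.6%, against 37.7%) and Kap1 at 4 (14.8%, against 16.2%). Apoa2 and Apof had 2 and 3 H3K14ac peaks and 0 of Kap1, and Apol6 had 3 Kap1 peaks and 0 of H3K14ac. Histone cluster genes had 6 H3K14ac and 0 Kap1 peaks, Hox genes had 4 and 6, keratin genes 2 and 2, and clustered protocadherin genes 1 and 3, numbers too few to set these families apart for Kap1.

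**Figure D3:**
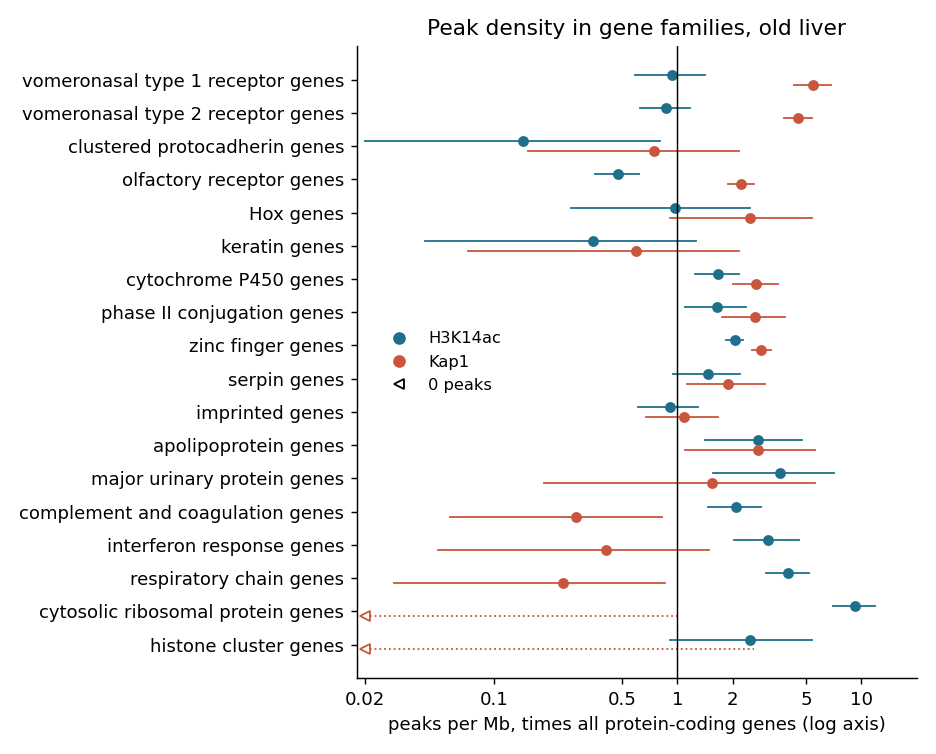
Points give the density of peak midpoints in each gene family divided by that in all protein-coding genes (log axis, line at 1), H3K14ac in blue and Kap1 in red, with exact 95% Poisson intervals of the family's count and open triangles at 0 peaks. Both families of vomeronasal receptor genes lead for Kap1 (5.47 and 4.54 times). Ribosomal protein genes at 9.25 times (5.30 with 5 kb either side) lead for H3K14ac, and zinc finger genes are above 1 for both. Densities are not adjusted for gene length.

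Kap1 peaks were nearer to H3K14ac than the genome at large, but most were not close. The median distance from a Kap1 peak to the nearest H3K14ac peak was 30176 bp (95% interval of the median 29073 to 31433 bp, quartiles 5954 and 122235 bp). For the 15972365 tiles of 150 bp that make up the chromosomes the median was 74757 bp. Within 1 kb lay 10.5% of Kap1 peaks and 2.0% of tiles, and within 10 kb 31.8% and 12.4%. Over 100 kb away were 28.2% of Kap1 peaks and 42.4% of tiles. The reverse distance, from H3K14ac to Kap1, had a median of 54713 bp, against 91193 bp for tiles. In young liver, where the Kap1 list was longer, the median from Kap1 to H3K14ac was 33491 bp.

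The distance varied with place and with width. Kap1 peaks in zinc finger genes lay a median of 5483 bp from H3K14ac, and without chromosome 4 this was 9676 bp, against 32396 bp for all Kap1 peaks without it. By chromosome the median ran from 13568 bp on chromosome 4 to 73803 bp on chromosome 11. Near start sites it was 17350 bp, in exons 14946 bp, in introns 28375 bp and between genes 36313 bp. Kap1 peaks wider than 150 bp, the commonest width, had a median of 2315 bp, compared with 40285 bp for those of 150 bp.

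**Figure D4:**
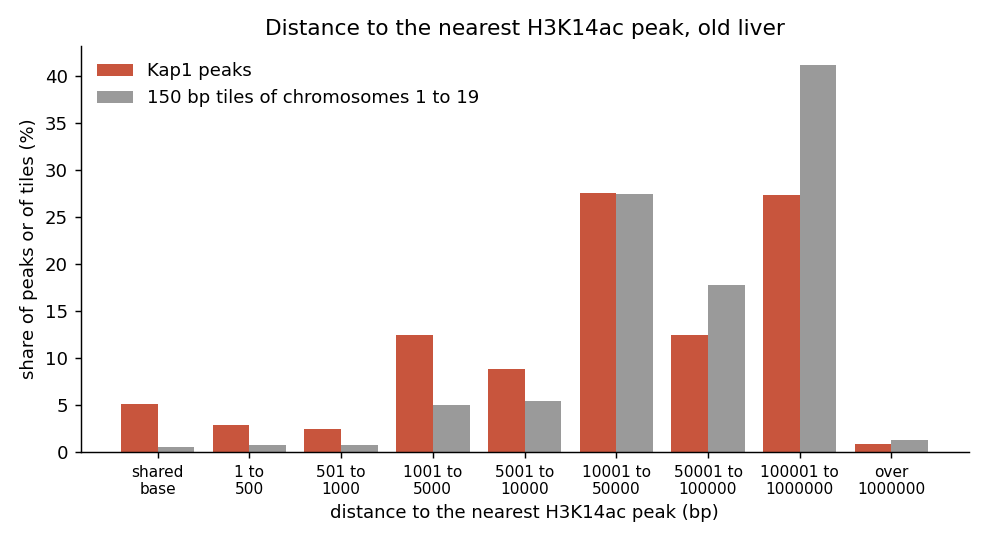
Bars give the share (%) of Kap1 peaks in old liver, and of all 150 bp tiles of chromosomes 1 to 19, by distance in bp to the nearest H3K14ac peak. Kap1 exceeds the tiles in every class up to 10000 bp, is level with them in the class up to 50000 bp (27.5% and 27.4%) and is below them beyond.

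A shared base with H3K14ac was found for 1103 of the 21390 Kap1 peaks, 5.16% (4.87% to 5.46%), where 0.543% of tiles have one. With every peak set to 150 bp the share was 2.92%, and 8.05% of Kap1 peaks were counted once peaks separated by no more than 500 bp also qualified. By midpoint the share was 4.0%, which is 9.41 times the 0.425% of bases in H3K14ac. Averaged over Kap1 peaks, the 1 Mb bin around a peak had 1.32% of its bases in H3K14ac and the 100 kb bin 2.03%, and the part of this local density in the overlap was not tested. From the other side, 1299 of 20120 H3K14ac peaks had a Kap1 peak (6.46%), and in young liver 4.33% of Kap1 peaks were in H3K14ac (4.15% to 4.52%).

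The shared peaks were crowded into few places. Of the 2403 bins, 263 held a Kap1 peak in H3K14ac, and 31 bins with 10 or more held 626 of the 1103 (56.8%), although only 12.9% of all Kap1 peaks lay there. Outside these 31 bins, a choice made after the counts were seen, 477 of 18627 Kap1 peaks were in H3K14ac (2.56%), and the median distance was 41019 bp. Chromosome 4 had 271 shared peaks, 14.1% of its Kap1 peaks (12.6% to 15.8%), and the other 18 chromosomes ran from 1.49% on chromosome 15 to 6.06% on chromosome 17. The bin of Zfp985 and the next upstream, from 146000001 on chromosome 4 with Zfp981 and Zfp992, held 76 and 48. The chitinase bin of chromosome 3 held 38. Chromosome 1 from 88000001 to 89000000 was unlike the others, since it had only 21 Kap1 peaks, of which 19 were in H3K14ac. By gene, the long noncoding RNA genes C230088H06Rik, Gm26573 and Gm26624, which span the zinc finger cluster of chromosome 4 and in part overlap, had 48, 44 and 35. Trpm8, the cold receptor channel, had 12, Zfp981 had 11, Sfi1, a centrosome gene, had 10, and Phf24, Platr16, Tmem267 and Tpcn2 had 7 each.

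Where the marks met, H3K14ac peaks were less often at start sites and Kap1 peaks more often than the rest of their list. H3K14ac peaks with Kap1 were at start sites in 14.2% of cases (12.4% to 16.2%), against 38.1% of those without (37.4% to 38.8%). Only 2.52% of H3K14ac peaks at start sites had Kap1, compared with 9.90% of those between genes. Kap1 peaks in H3K14ac were at start sites in 14.1% and the other Kap1 peaks in 6.03%. Centres with 5 or more CpG were 8.85% of H3K14ac peaks with Kap1 and 35.7% of those without, and 10.6% of Kap1 peaks in H3K14ac and 5.84% of the others. A second copy of the sequence elsewhere in the assembly, at 95% identity over 90% of the central 150 bp, was found for 30.4% of H3K14ac peaks with Kap1 and 4.72% of those without, and for 27.5% of Kap1 peaks in H3K14ac and 11.3% of the others. For Kap1 peaks, the shares at start sites and with a second copy also moved with width. At 150 bp they were 5.74% and 9.26%, and over 150 bp they were 10.7% and 29.6%. Of the 1103 Kap1 peaks in H3K14ac, 749 were over 150 bp, against 3058 of all 21390. The part of width in these contrasts was not tested. Reads were kept only where they aligned uniquely. What repeated sequence contributes to the shared peaks was not tested beyond the comparison by copy number that follows.

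The share of Kap1 peaks in H3K14ac went up with the width of the Kap1 peak. It was 1.93% for the 18332 peaks of 150 bp (1.74% to 2.14%), 16.4% of 2259 above that and up to 500 bp (14.9% to 18.0%) and 37.3% of 528 above 500 and up to 1000 bp (33.3% to 41.5%). Above 1000 and up to 2000 bp it was 59.0% of 195 (52.0% to 65.6%), and over 2000 bp 88.2% of 76 (79.0% to 93.6%). No interval overlapped the next. A wide peak meets another by its length alone, and by the midpoint the shares were 1.58%, 13.9%, 26.3%, 37.4% and 53.9% in the same order. By the central 150 bp they were 1.93%, 14.9%, 30.5%, 44.1% and 67.1%. Peaks without a second copy gave 1.86%, 15.5%, 32.8%, 55.5% and 82.0%. In young liver the shares were 1.96%, 15.2%, 37.4%, 56.3% and 84.4%, each within the interval of old liver. The same order held for H3K14ac. A Kap1 peak was found for 5.54% of H3K14ac peaks of 500 bp, 39.1% of those above that and up to 1000 bp, 75.8% up to 2000 bp and 29 of 30 over 2000 bp.

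**Figure D5:**
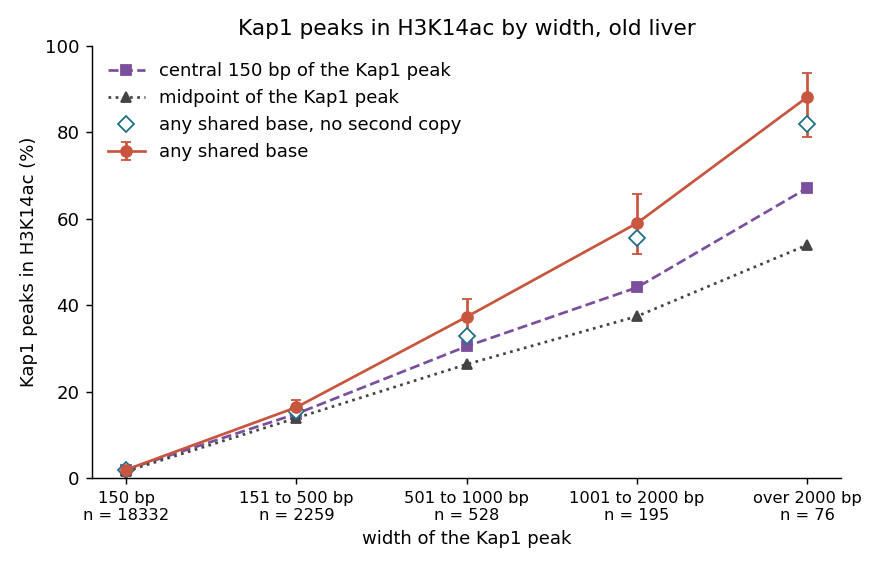
The share of Kap1 peaks in H3K14ac (%) is plotted against the width class of the Kap1 peak, with n under each class, for any shared base (95% Wilson intervals), for the central 150 bp, for the midpoint and for peaks without a second copy. All 4 measures go up from under 2% at 150 bp, to 88.2% by any shared base and 53.9% by the midpoint over 2000 bp.

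Among 271 Kap1 peaks over 1000 bp, 182 were in H3K14ac. The widest spanned 15870 bp on chromosome 11 (GRCm38, 3184206 to 3200075) across part of Sfi1 and the start of Drg1. Its H3K14ac partner of 15852 bp began 23 bp and ended 5 bp further on. Such near identity of both edges, within 100 bp, was seen for 12 of the 182. It held for a peak of 5971 bp at the RNA gene AY036118 on chromosome 17 (39842928 to 39848898) and for one of 4190 bp in an intron of Zfp992 on chromosome 4 (146453998 to 146458187). More often the acetylation was narrower. In 62 the widest H3K14ac partner was over 1000 bp, and in 78 it had the commonest width of 500 bp. On chromosome 1, Kap1 peaks of 13558 bp at Ugt1a1 (88211464 to 88225021), of 10810 bp at the start of Mroh2a and of 15610 bp over Hjurp, which codes for a chaperone of centromeric histone, met 4, 4 and 7 separate H3K14ac peaks. None of these 3 had a second copy. On chromosome 4, a Kap1 peak of 8144 bp in Zfp981 met 6, and peaks of 4607 to 5291 bp around Mup5, all with a second copy, met 3 to 6 each.

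Wide Kap1 peaks mostly had a young Kap1 peak, in H3K14ac or not. Of the 182 in H3K14ac, 172 had a young Kap1 peak (94.5%) and 159 a young H3K14ac peak, and of the other 89 over 1000 bp, 74 (83.1%) and 40 did. Over all widths, 64.8% of Kap1 peaks in H3K14ac had a young Kap1 peak, compared with 14.4% of the others. Width moved with this share too, from 9.75% of Kap1 peaks of 150 bp to 96.1% of those over 2000 bp. The part of each was not tested. A wide peak also meets a young peak by its length alone, and no share by midpoint is given here. A young H3K14ac peak was found at 48.6% of Kap1 peaks in H3K14ac and 4.23% of the others. Young peaks of both marks were found at 42.2% and 1.97%. Both contrasts follow in part from the grouping itself, which was by an old H3K14ac peak. The share over all old H3K14ac peaks is not given here. Setdb1, the methyltransferase that Kap1 recruits, had an old peak at 53 of the 1103 shared Kap1 peaks and at 252 of all 21390.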

How the data were processed

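Positions of ChIP-Seq peaks were analysed from lists deposited as chromosome, start and end, 1 per mark and age, in which no height, score or p-value is used. Positions carry no counts, so the depth per sample is unknown. According to the study's methods, the authors mapped reads to mm10, which is GRCm38, using BWA, discarded duplicates by Picard, retained unique alignments, pooled the livers of each group and called peaks over input by PeakSeq. Starts were moved to count from 1. Genes were those of the GENCODE basic annotation, M21, and sequence was RefSeq GRCm38. Peaks were classed by any overlap with 1 kb around a start site, then exon, intron or between genes. Shares carry 95% Wilson intervals, densities exact Poisson intervals, and a count of 0 allows 3. Tiles were consecutive 150 bp windows without unknown bases. Distances were between edges. Second copies were sought with minimap2 2.31. Overlap code recovered 300 of 300 planted overlaps among 2000 simulated peaks, and gave the 1103 Kap1 peaks in H3K14ac of bedtools 2.31.1. The software was scipy 1.17.1, numpy 2.4.6 and matplotlib 3.10.9 under Python 3.11.15.

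The genes named were those with the most peaks in the 5 leading 1 Mb bins of each list or of both, up to 4 members of each gene list with the most peaks of each mark, the widest Kap1 peaks in H3K14ac, the 10 genes with the most of these, the genes of the factors and cell type markers. The motifs were 5 short strings. The marks, gene lists, tests and alternatives were chosen with earlier results of these data known. Alternatives were other bin sizes, covered bases, start-site windows, midpoints, merged peaks, added or omitted chromosomes and restricted widths. The Setdb1 lists were used only for overlaps, and the sequential ChIP samples were not analysed here. Some genes and a sequence that the rule would name are not reported here.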

Additional observations from a re-analysis of the deposited data

Results flagged for a closer look

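The comparison was limited to chromosomes 1 to 19, and the lists of old liver also hold shared peaks on the sex chromosomes, a signal outside it. On chromosome X, 32 of 667 Kap1 peaks were in H3K14ac, 4.80% (95% Wilson interval 3.42% to 6.69%), among 311 H3K14ac peaks. On chromosome Y, 8 of 84 were, 9.52% (4.91% to 17.7%), among 32 H3K14ac peaks. Both intervals take in the 5.16% of chromosomes 1 to 19.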

How the results depend on the processing

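Of 88 recomputed values, 51 stayed within the counting interval of the value reported, or within 0.05 for a correlation, 37 moved and 0 reversed. A reversal could be called only for a correlation, or for the density of a gene family whose interval leaves out 1. For the other values the rule had no reversal, so the 0 says nothing of them. H3K14ac in vomeronasal type 2 genes, at 0.87 times with an interval that takes in 1, was 1.03 times after merging and 1.14 times without chromosome 7. Pearson's r of the bins was 0.50 at 100 kb, 0.69 over covered bases, 0.39 without the densest bins, 0.54 with peaks merged within 1 kb and 0.55 without chromosome 4, and rho was 0.083 at 100 kb and 0.25 at 5 Mb. Shares at start sites for H3K14ac and Kap1 were 50.9% and 23.5% within 5 kb (18.8% of bases), 34.7% and 5.95% by midpoint and 33.0% and 2.63% with protein-coding genes only, and for merged H3K14ac peaks 34.1%. Kap1 in zinc finger genes was 2.34 times all protein-coding genes after merging, 2.17 times with peaks of 150 bp only and 2.10 times without chromosome 4, where 4.42% of those peaks were in H3K14ac, in vomeronasal type 2 genes 6.06 times without chromosome 7, and H3K14ac in ribosomal protein genes 5.30 times with 5 kb either side. The median distance was 40285 bp for Kap1 peaks of 150 bp, 31446 bp away from start sites, 35798 bp after merging, 31588 bp with chromosome X and 41019 bp without the 31 crowded bins. The share of Kap1 peaks in H3K14ac was 3.74% where 50% of the peak had to be shared, 8.05% with a gap of 500 bp, 2.92% with every peak at 150 bp, 4.66% after merging, 4.27% without chromosome 4 and 2.56% without the crowded bins. For Kap1 peaks of 150 bp it was 1.58% by midpoint and 1.45% without the crowded bins. For those over 1000 bp, 67.2% as reported, it was 42.1% by midpoint, 50.6% with Kap1 peaks at 150 bp, 42.8% with H3K14ac peaks of 500 bp only and 51.1% without the crowded bins. The omissions of chromosome 4, of the crowded bins and of second copies were chosen after seeing the data. No paired analysis was possible because the livers were merged before peak calling, and for the same reason no liver could be left out. Signal under the authors' threshold does not appear in a list, and the causes of these shifts were not tested beyond what each setting changes by construction.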

Other observations

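Classes of RNA genes and pseudogenes differed in how often a mark lay near them. Of 386 tRNA genes, 28 had an H3K14ac peak within 500 bp (7.25%) and 3 a Kap1 peak (0.78%), where 1.29% and 1.15% of tiles do. Of 2054 miRNA genes 5.36% and 1.56% did, of 1442 snoRNA genes 3.05% and 1.87%, of 1292 snRNA genes 1.24% and 0.70%, and of 321 rRNA genes 1.56% each. The 5209 long intergenic noncoding RNA genes, with 12.3% and 9.45% and 148 near both, are longer than the tiles and so meet a peak more easily. Processed pseudogenes, copies of mRNA inserted back into the genome, had 1.64% near H3K14ac and 3.33% near Kap1 among 8924, and at a median of 547 bp they too are longer than the tiles.

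The lines of the deposited Kap1 list are not in genome order, and what orders them is not stated in the sources used here. Of the Kap1 peaks in the first 2000 lines, 15.7% were in H3K14ac, and in the later blocks of 2000 the share was 3.25% to 4.95%. The first lines held wider peaks, 428 bp on average. Among peaks of 150 bp alone the first 2000 lines had the lowest share, 0.79%, and the later blocks had 1.16% to 3.33%.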
